A study of Rattus norvegicus with 2 samples.

Results

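The 5 genes described here sit along the path from insulin and insulin-like growth factors (IGFs) to cell growth, and were followed in H9c2 cells exposed to high phosphate. They were picked by name and found through their Entrez gene identifiers: Igf1r (25718), Irs2 (29376), Foxo4 (302415), Ddit4 (140942) and Mxi1 (25701). All 5 were present in both libraries, among 7803 genes with a usable identifier, and all 5 had a mean of at least 1 FPKM, as had 4366 genes in all. FPKM counts fragments mapped to a gene, relative to its transcript length and to all mapped fragments. Genes that reach this mean are called measured. H9c2 is a myoblast line from embryonic rat heart. One culture was kept in serum-free medium with 2.5 mM phosphate for 12 h, and the control in serum-free medium with 0.9 mM phosphate for 12 h. Neither medium therefore held the growth factors of serum. Each phosphate level had 1 library, so no value below has a replicate error, no test between the cultures was possible, and words such as higher and lower compare 2 libraries. The files hold no counts, so sequencing depth is unknown.

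IGF1 and insulin bind receptor tyrosine kinases, of which Igf1r encodes the IGF1 receptor. The receptors phosphorylate adaptors such as IRS2, which recruit PI3 kinase and so activate AKT. AKT keeps FOXO transcription factors out of the nucleus and releases the kinase complex mTORC1, which drives protein synthesis, from its inhibitor TSC. When growth factors are scarce, FOXO factors enter the nucleus and switch on genes that include Igf1r, Irs2 and Mxi1 in several mammalian cell types. DDIT4, also called REDD1, restrains mTORC1 through TSC and is induced by low oxygen, glucocorticoids and other stresses. MXI1 pairs with MAX and opposes MYC, the factor that turns on ribosome and growth genes.

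By log2 ratio with 1 added to each FPKM, the mTORC1 inhibitor and the MYC antagonist of this set stood highest in high phosphate. Ddit4 and Mxi1 were at least 2-fold higher than in the control and Igf1r was close to that, whereas Irs2 and Foxo4 were slightly lower. Differences are given as log2((high phosphate FPKM + 1)/(control FPKM + 1)), and 2-fold on this scale is a log2 ratio of 1. The added 1 makes the difference of a low gene look smaller than its listed FPKM. By listed FPKM alone, Igf1r had the widest ratio of the 5 genes. By the log2 ratio 2 of the 5 genes were at least 2-fold higher and 0 at least 2-fold lower. Of all measured genes, 1.76% were 2-fold higher, 0.87% were 2-fold lower and 2.63% were past 2-fold in either direction. The median log2 ratio was 0.90 over the 5 genes and 0.00 over all measured genes. The genes were chosen with these values known, so the comparison describes them and tests nothing.

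The stretches around the start sites of 4 of the genes are shown because 3 of these genes were higher together and 1 was nearly level. Sequences of 250 bases before to 50 bases after the annotated start come from RefSeq, build GRCr8, 5′ to 3′ on the strand of the gene. The Ddit4 stretch is chr20:28436988-28437287 on the minus strand, that of Mxi1 chr1:262348392-262348691 on the plus strand, that of Igf1r chr1:130959747-130960046 on the plus strand and that of Foxo4 chrX:70425313-70425612 on the plus strand. Capitals mark any match, on either strand, to ACGTG and GCGTG (the core letters of the hypoxia response element), to CACGTG (the E-box read by MYC, MAX and MXI1, which contains ACGTG on both strands) and to GTAAACA (the core letters of the FOXO site).
Ddit4: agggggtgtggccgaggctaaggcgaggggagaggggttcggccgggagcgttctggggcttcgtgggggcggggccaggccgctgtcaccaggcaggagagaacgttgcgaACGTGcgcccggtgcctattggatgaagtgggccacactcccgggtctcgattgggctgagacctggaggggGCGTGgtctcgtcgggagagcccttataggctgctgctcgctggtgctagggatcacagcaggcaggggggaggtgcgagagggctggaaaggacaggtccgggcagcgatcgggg
Mxi1: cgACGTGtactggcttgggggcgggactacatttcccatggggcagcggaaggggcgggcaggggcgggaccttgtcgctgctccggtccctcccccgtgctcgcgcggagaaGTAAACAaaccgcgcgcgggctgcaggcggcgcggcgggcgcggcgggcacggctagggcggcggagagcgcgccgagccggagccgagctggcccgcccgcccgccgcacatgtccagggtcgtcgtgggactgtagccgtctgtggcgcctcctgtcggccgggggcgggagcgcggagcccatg
Igf1r: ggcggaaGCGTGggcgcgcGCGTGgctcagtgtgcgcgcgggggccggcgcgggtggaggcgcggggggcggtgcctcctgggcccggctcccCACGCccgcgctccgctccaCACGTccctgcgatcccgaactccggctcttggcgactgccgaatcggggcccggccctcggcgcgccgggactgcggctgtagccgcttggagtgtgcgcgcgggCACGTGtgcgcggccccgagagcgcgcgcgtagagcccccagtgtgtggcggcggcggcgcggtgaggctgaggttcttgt
Foxo4: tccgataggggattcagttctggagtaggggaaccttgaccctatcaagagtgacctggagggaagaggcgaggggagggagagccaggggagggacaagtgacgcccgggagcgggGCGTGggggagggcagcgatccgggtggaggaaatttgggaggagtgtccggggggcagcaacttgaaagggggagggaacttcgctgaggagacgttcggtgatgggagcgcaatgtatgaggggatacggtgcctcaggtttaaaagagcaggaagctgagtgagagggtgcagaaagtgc

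In these letters Ddit4 held ACGTG 1 time and GCGTG 1 time, the first beginning 138 bases before the start and the second 66 bases before it. Mxi1 held ACGTG 1 time, 248 bases before the start, and was the 1 gene of the 4 with GTAAACA, which began 137 bases before the start. Igf1r held CACGTG 1 time, beginning 31 bases before the start, and counted with it ACGTG 3 times and GCGTG 3 times. Foxo4 held GCGTG 1 time. These short words are common. Among all 33469 stretches of the same length in the RefSeq table, 19.3% held ACGTG, 29.7% GCGTG, 6.42% CACGTG and 3.78% GTAAACA. Among the 3609 measured genes with an entry, taking the first for each, the shares were 28.9%, 52.5%, 11.0% and 2.22% in the same order. The stretches of Igf1r, Mxi1, Ddit4 and Foxo4 were 78.0%, 75.7%, 68.3% and 60.3% G or C, against a median of 51.7% over the table. A match is a run of letters and was not shown to be bound. Irs2 has no sequence shown.

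Igf1r, the receptor, was listed at 2.67 FPKM in high phosphate and 0.96 FPKM in the control. Its listed FPKM were 2.78 times as high in high phosphate, the widest ratio of the 5 genes, while with the added 1 its log2 ratio was 0.90 and under 2-fold. Only 2.29% of measured genes had a higher log2 ratio. It was also the lowest of the 5 genes in both libraries and belonged to the lowest of the 5 classes of equal size made by mean FPKM, where values spread most. The central 95% of genes in this class had log2 ratios of -1.02 to 1.18, so Igf1r lay inside it, at rank 37 from the top of 874 genes. The call turned on the constant added: the log2 ratio was 1.12 with 0.5 and 1.39 with 0.1 in its place. In GRCr8 the Igf1r locus overlaps the protein-coding gene Pgpep1l and 1 long noncoding RNA. Whether the authors counted by strand is not stated, so reads of overlapping genes cannot be assigned with certainty.

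Irs2, the adaptor next to the receptor, was listed at 5.11 FPKM in high phosphate and 6.68 FPKM in the control, a log2 ratio of -0.33. This is the opposite direction to its receptor, and the log2 ratio of Igf1r exceeded that of Irs2 by 1.23. Put as levels within a library, Igf1r FPKM were 0.523 times those of Irs2 in high phosphate and 0.144 times in the control. The Irs2 difference was well inside the spread of its class: the central 95% ran from -0.77 to 0.97, and 28.3% of all measured genes were at least as far from 0.

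Foxo4, the FOXO factor of the set, was nearly level, with 7.67 FPKM in high phosphate and 8.59 FPKM in the control. Its log2 ratio was -0.15, and 62.0% of measured genes were at least as far from 0. FOXO proteins are controlled mainly by phosphorylation and location, which RNA sequencing does not measure.

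Ddit4, the mTORC1 inhibitor, was listed at 27.1 FPKM in high phosphate and 9.83 FPKM in the control. Its listed FPKM were 2.75 times as high in high phosphate and its log2 ratio was 1.37. It ranked 34 from the top of 4366 measured genes and 2 from the top of the 873 genes in its own class by mean FPKM, where the central 95% ran from -0.56 to 0.79. The FPKM difference of Ddit4, 17.2, was also the largest of the 5, and Ddit4 was the most abundant of the 5 genes in both libraries. Its log2 ratio stayed between 1.21 and 1.45 under the other constants and rescalings tried.

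Mxi1, the MYC antagonist, was listed at 8.91 FPKM in high phosphate and 3.63 FPKM in the control, 2.45 times as high, with a log2 ratio of 1.10. It ranked 60 from the top of all measured genes and 13 from the top of 873 in its class, where the central 95% ran from -0.77 to 0.97. With the 2 libraries brought to an equal sum of listed FPKM, its log2 ratio was 0.95, under 2-fold. The sums differed, at 346857 in high phosphate and 307622 in the control, and this rescaling to an equal sum moved the median of all measured genes to -0.15. In GRCr8 the Mxi1 locus overlaps 1 long noncoding RNA gene.

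**Figure D1:**
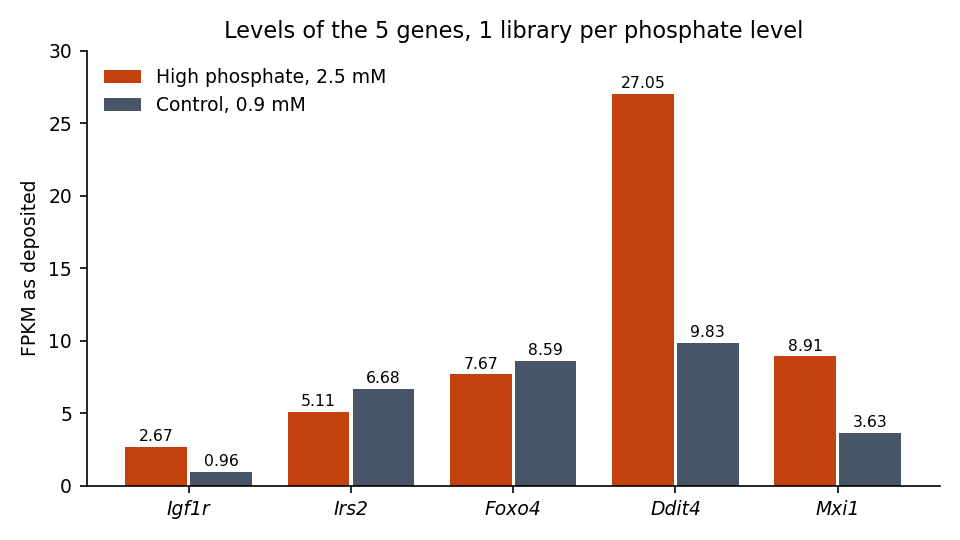
FPKM as deposited (vertical axis, from 0) of Igf1r, Irs2, Foxo4, Ddit4 and Mxi1 in the high phosphate library (left bar of each pair) and the control library (right bar), 1 library each and therefore no error bars. Ddit4, Mxi1 and Igf1r are taller in high phosphate, and Irs2 and Foxo4 are taller in the control.

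The plot of levels shows that the order of the genes differed between the libraries. In high phosphate it was Ddit4, Mxi1, Foxo4, Irs2 and Igf1r from high to low, and in the control Ddit4, Foxo4, Irs2, Mxi1 and Igf1r. The other 4 genes kept their relative order, and Mxi1 stood above Foxo4 and Irs2 in high phosphate and below both in the control. In the control Ddit4 and Foxo4 were close, at 1.14 times, and in high phosphate Ddit4 FPKM were 3.53 times those of Foxo4. With 1 library per culture, no spread is known that would separate neighbours in either order.

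**Figure D2:**
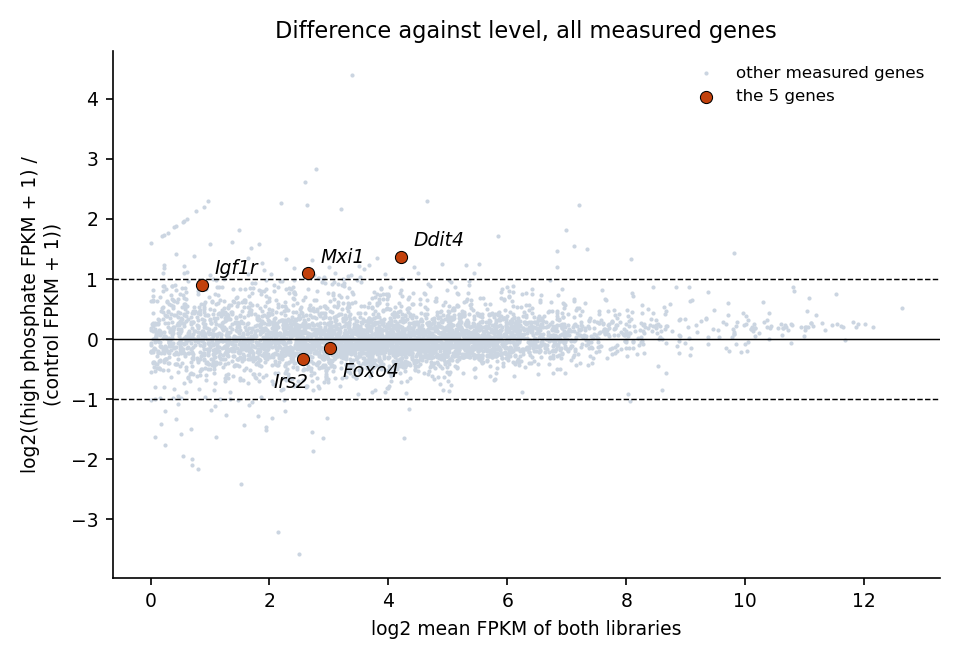
Each point is 1 of 4366 measured genes, with log2 mean FPKM of both libraries on the horizontal axis and log2((high phosphate FPKM + 1)/(control FPKM + 1)) on the vertical axis; dashed lines mark 2-fold. Ddit4 (1.37) and Mxi1 (1.10) lie above the upper line, Igf1r (0.90) just under it in the wider cloud of low genes, and Foxo4 (-0.15) and Irs2 (-0.33) inside the cloud.

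The genes with the most similar pair of levels were found as the 2 nearest by distance on log2(FPKM + 1) over the 2 libraries. Of the pair found for Ddit4, Gbe1, the glycogen branching enzyme, had 21.3 FPKM in high phosphate and 9.49 FPKM in the control, at a distance of 0.34. Mxi1 was nearest to Eif4e3, a relative of the cap-binding protein, and Fntb, a farnesyltransferase subunit, at 0.13 and 0.15. Igf1r was nearest to Or2a25 and Nudt22 (0.032 and 0.035), Irs2 to Dclre1b and Nr1d2 (0.018 and 0.027), and Foxo4 to Pom121 and Mettl14 (0.0096 and 0.029). With 2 libraries this is a likeness of 2 numbers per gene.

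Around the receptor few genes could be followed. Of 8 ligands and receptors of the IGF and insulin family 3 were listed. Besides Igf1r these were Igf2, a fetal growth factor, with 4.29 FPKM in high phosphate and 3.06 FPKM in the control, and Igf1, listed at 0 in both. The insulin receptor gene Insr was not analysed here. Binding proteins hold IGFs outside the cell. Igfbp7 was the most abundant of them, with 472 FPKM in high phosphate and 327 FPKM in the control, and Igfbp4 had 40.0 and 27.6 FPKM in the same order (log2 ratios 0.53 and 0.52). Igfbp6 was level, with 1.44 and 1.43 FPKM, and Igfbp2 was listed at 0 and 0.03 FPKM.

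Adaptors and brakes at the receptor went both ways. Of 9 measured genes 4 had a log2 ratio above 0 and 5 below, as 50.5% and 49.4% of all measured genes did, and 0 were 2-fold apart. Cblb, a ubiquitin ligase that takes down tyrosine kinase signals, was the highest, with 2.63 FPKM in high phosphate and 0.89 FPKM in the control (log2 ratio 0.94). Shc1, the adaptor toward RAS, had 43.9 and 33.2 FPKM in the same order. At the other end Ptpn11, the phosphatase SHP2 that relays signals from receptor to RAS, had 6.52 FPKM in high phosphate and 10.7 FPKM in the control (log2 ratio -0.64). Irs2 was second lowest, and its relative Irs3 was listed at 0.21 and 0.23 FPKM.

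One step down, the PI3 kinase and AKT list was mixed. Akt2, a kinase of the AKT family and the most abundant measured gene of the list, had 40.8 FPKM in high phosphate and 39.8 FPKM in the control. Of 8 measured genes, 3 were higher and 5 lower as deposited, with a median log2 ratio of -0.05. With equal sums the counts were 2 and 6, where 67.8% of all measured genes were lower. The lowest was Ppp2r5b, a regulatory subunit of the phosphatase PP2A that can act on AKT, with 3.76 and 5.90 FPKM in the same order.

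Foxo3, the other FOXO factor measured, differed in direction from Foxo4. It had 3.93 FPKM in high phosphate and 2.51 FPKM in the control (log2 ratio 0.49). Foxo4 was the more abundant in both libraries, with Foxo3 FPKM 0.512 times those of Foxo4 in high phosphate and 0.292 times in the control. Foxo1 and Foxo6 were not analysed here. Of 8 measured regulators of FOXO factors, 4 were higher and 4 lower as deposited. With equal sums the counts were 2 and 6, where 67.8% of all measured genes were lower. Sgk1, a kinase that phosphorylates FOXO3 at sites shared with AKT, was the lowest, with 22.7 FPKM in high phosphate and 42.3 FPKM in the control (log2 ratio -0.87, and -1.04 with equal sums). The highest was Cdk1, a cell cycle kinase, with 13.2 and 6.91 FPKM in the same order. The most abundant was the 14-3-3 gene Ywhae, whose protein holds phosphorylated FOXO in the cytoplasm, with 305 and 311 FPKM.

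Genes known as FOXO targets leaned higher. Of 22 measured, 17 had a log2 ratio above 0, where 50.5% of all measured genes did. Of these 17, 3 passed 2-fold, where 1.76% of all measured genes were 2-fold higher. The list median was 0.23, against 0.00 for all measured genes. With the sums made equal 12 of the 22 were higher, where 32.2% of all measured genes were. Without Igf1r, Irs2 and Mxi1, which are in the list, 15 of 19 were higher and the median was 0.20. The 3 past 2-fold were Bnip3, a mitophagy protein that also binds the mTORC1 activator RHEB, with 245 FPKM in high phosphate and 51.3 FPKM in the control, Cdkn1a, the cell cycle inhibitor p21, with 5.60 and 1.73 FPKM, and Mxi1. Several Bnip3 pseudogenes exist in the rat genome, and the handling of reads that match more than 1 place is not stated. Bnip3 and Mxi1 are also genes of the low oxygen response. Without the genes shared with that list, 15 of 20 were higher as deposited, 1 was 2-fold higher and the median was 0.17. With equal sums 10 of the 20 were higher. Ccnd1, cyclin D1, which FOXO factors repress, was the most abundant by the mean of both libraries, with 240 and 194 FPKM. Ccnd1 is among the genes counted as higher, and the list does not separate induced from repressed targets. Klf2, a Krüppel-like transcription factor gene, was the lowest, with 34.3 FPKM in high phosphate and 53.4 FPKM in the control.

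Among the restraints on mTORC1, Ddit4 and Bnip3 were the 2 genes past 2-fold. Of 13 measured genes of that list, 9 were higher and 4 lower as deposited, where 50.5% of all measured genes were higher. With equal sums the counts were 6 and 7, where 32.2% of all measured genes were higher. Eif4ebp1, the translation repressor 4E-BP1 that mTORC1 switches off, came next, with 145 FPKM in high phosphate and 86.4 FPKM in the control (log2 ratio 0.74). Its relative Eif4ebp2 was level at 32.3 and 32.3 FPKM. Txnip, a thioredoxin-binding protein that also stabilises DDIT4 protein, had 139 and 103 FPKM in the same order. The AMP-activated kinase subunit Prkaa1 had 11.1 and 11.0 FPKM, its upstream kinase Stk11 12.8 and 10.3 FPKM, and Nprl2, part of the amino acid brake GATOR1, 10.6 FPKM in both. Deptor, an inhibitor bound to mTOR itself, was the lowest measured, with 2.86 and 3.35 FPKM. Tsc1, through which DDIT4 acts together with TSC2, was listed at 0 in high phosphate and 0.54 FPKM in the control, too low to be compared. Without Ddit4 and Bnip3, which are shared with the low oxygen list, 7 of 11 were higher as deposited and 4 of 11 with equal sums, with a median log2 ratio of 0.01 as deposited and 0 genes past 2-fold.

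**Figure D3:**
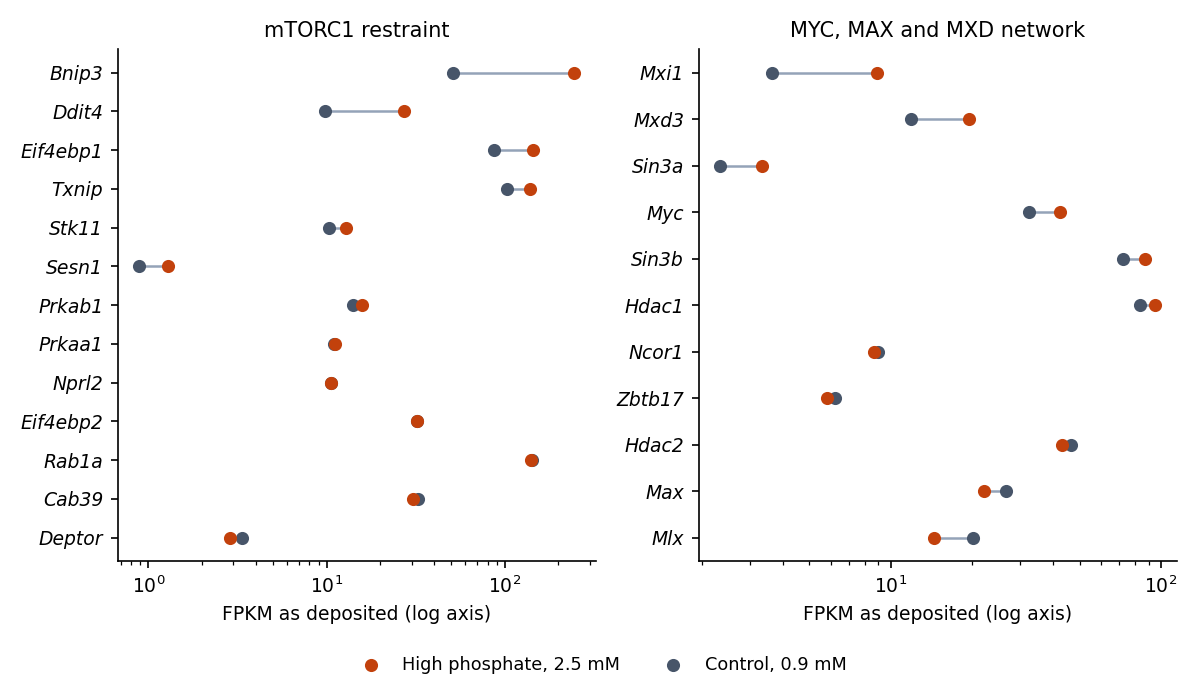
FPKM as deposited (log axis) of measured genes of the mTORC1 restraint list (left panel) and of the MYC, MAX and MXD network (right panel), ordered by log2 ratio, with the high phosphate library in orange and the control library in grey. Bnip3, Ddit4 and Mxi1 show the widest gaps, and most genes lower in each panel nearly overlap.

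The mTOR complexes and their activators were close to level. Of 17 measured genes 8 were higher and 9 lower as deposited, 1 was higher and 16 lower with equal sums, where 67.8% of all measured genes were lower in that setting, and 0 were 2-fold apart in either case. Lamtor4 and Lamtor3, both parts of the lysosomal anchor of mTORC1, stood at opposite ends, with 78.6 FPKM in high phosphate and 70.3 FPKM in the control for Lamtor4 and 4.03 and 7.13 FPKM for Lamtor3. Sec13, shared with the nuclear pore and secretory coats, was the most abundant, with 145 and 132 FPKM. Ddit4 levels can be set against Rheb, the small GTPase that TSC switches off and that activates mTORC1, named after its values were seen. Ddit4 FPKM were 0.282 times those of Rheb in high phosphate and 0.113 times in the control.

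Mxi1 was the gene with the highest log2 ratio in the MYC, MAX and MXD network. As deposited, 6 of 11 measured genes were higher and 5 lower, and 1, Mxi1, was 2-fold apart. Of all measured genes, 50.5% were higher and 2.63% were 2-fold apart. Without Mxi1 the counts were 5 higher and 5 lower, and with equal sums 0 genes of the list were 2-fold apart. Mxd3, another MAX partner that opposes MYC, was second, with 19.5 FPKM in high phosphate and 11.9 FPKM in the control (log2 ratio 0.67). Myc itself had 42.2 and 32.4 FPKM in the same order (0.37), whereas Max, the partner for which MYC, MXI1 and MXD3 compete, had 22.1 FPKM in high phosphate and 26.6 FPKM in the control (-0.26). As levels within a library, Mxi1 FPKM were 0.403 times those of Max in high phosphate and 0.136 times in the control. The corresponding values for Mxd3 were 0.882 and 0.447, and for Myc 1.91 and 1.22. The corepressor genes Sin3a and Sin3b, through which MXI1 acts, had 3.34 and 2.34 FPKM and 87.3 and 72.6 FPKM in the same order. Mlx, a MAX-like partner, was the lowest, with 14.4 FPKM in high phosphate and 20.2 FPKM in the control.

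Genes known to be driven by MYC were lower nearly throughout, by small amounts. Of 27 measured, 25 had a log2 ratio below 0 and 2 above, as deposited and under each of the 3 rescalings. Of all measured genes, 49.4% were lower as deposited and 67.8% with equal sums. Their median log2 ratio was -0.27, and 0 were 2-fold lower. Polr1b, a subunit of RNA polymerase I, which transcribes ribosomal RNA, was the lowest, with 4.95 FPKM in high phosphate and 8.03 FPKM in the control (log2 ratio -0.60). Npm1, the ribosome assembly chaperone nucleophosmin, was the most abundant, with 513 FPKM in high phosphate and 571 FPKM in the control. The highest was Nop58, of the ribosomal RNA methylation complex, with 3.55 and 1.99 FPKM in the same order. Many of the 25 are genes of ribosome assembly, which are regulated together, so the 25 cannot be counted as independent. Myc itself had a log2 ratio of 0.37, and why the listed genes were lower was not tested.

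**Figure D4:**
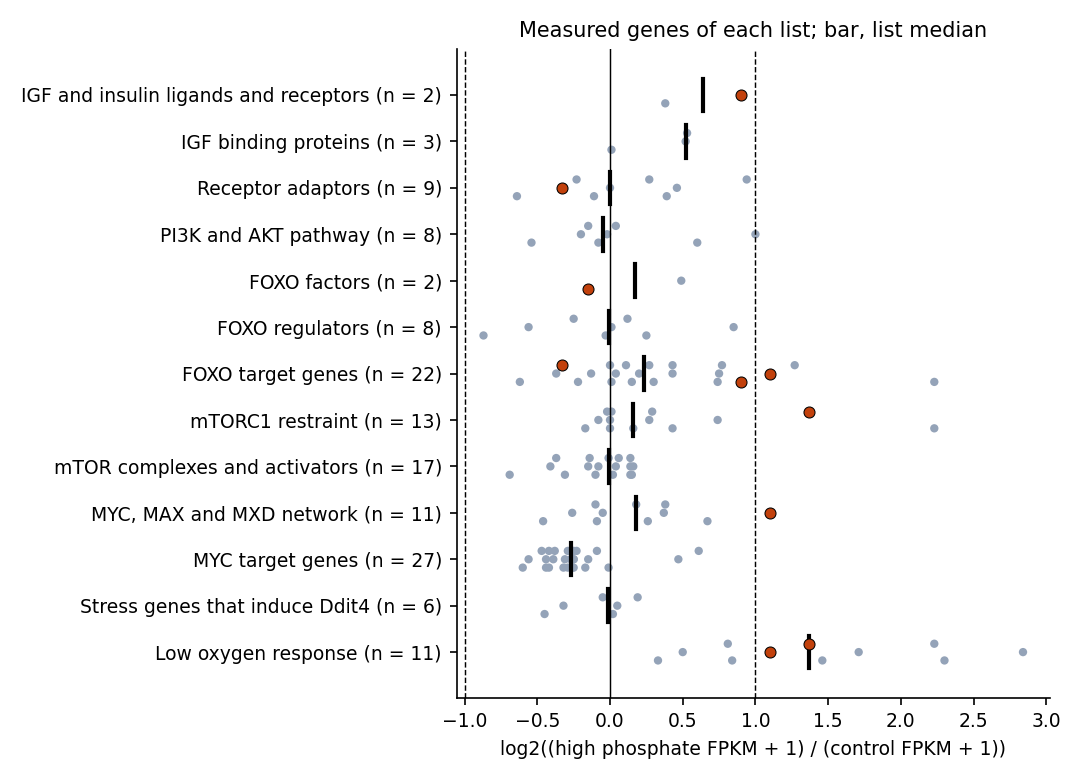
Log2((high phosphate FPKM + 1)/(control FPKM + 1)) of measured genes (points) in each pathway list drawn (marker and RNA quality lists are not drawn), with the list median as a black bar, the followed genes in orange and dashed lines at 2-fold. The low oxygen genes lie to the right with a median of 1.37, the MYC targets lie mostly left of 0 with a median of -0.27, and the other lists drawn have medians between -0.05 and 0.64.

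Ddit4 and Mxi1 belong as well to the genes known to rise in low oxygen, and in that list they were not extreme. All 11 measured genes of the list were higher, 7 of them at least 2-fold as deposited and 6 with equal sums. Of all measured genes, 50.5% were higher and 1.76% at least 2-fold higher as deposited, and 32.2% were higher with equal sums. Ddit4 held the median, 1.37, and Mxi1 lay below it. Without both, the other 9 were all higher as deposited, 5 of them at least 2-fold, with a median of 1.46. Another list held genes tied to other inducers of Ddit4, such as the stress factor ATF4 and the circadian and glucocorticoid response. As deposited, 3 of 6 measured were higher and 3 lower, where 50.5% of all measured genes were higher, and 0 were 2-fold apart. With equal sums the counts were 1 and 5, where 67.8% of all measured genes were lower. Atf4 was the most abundant, with 294 FPKM in high phosphate and 290 FPKM in the control. Chac1, an ATF4 target, was the highest, with 11.5 and 9.90 FPKM in the same order, and Atf3 the lowest, with 1.04 and 1.78 FPKM. Few genes of each inducer were measured, and what lay behind the Ddit4 and Mxi1 values was not tested.

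Markers were checked against the label of the line. Of the cardiomyocyte markers 5 were listed and 0 measured, with Myh7 and Ryr2 at 0 in both libraries. Of the myoblast markers 5 were listed and 2 measured. Des had 153 FPKM in high phosphate and 129 FPKM in the control, and Myod1 had 1.59 and 6.11 FPKM in the same order. Myog, Myh3 and Chrna1 were listed under 1 FPKM in both libraries. Endothelial markers summed to 0.36 and 0.08 FPKM and macrophage markers to 1.80 and 1.33 FPKM, with Ptprc at 0 in both. Of 6 measured fibroblast markers, 5 were higher and 0 were 2-fold apart, where 50.5% of all measured genes were higher as deposited. Their levels were uneven. S100a4 had 3249 FPKM in high phosphate and 3291 FPKM in the control, of a summed 4427 and 4021 FPKM. Col3a1 (844 and 489 FPKM) and Thy1 (317 and 232 FPKM) were also abundant. Dcn had 8.63 and 5.11 FPKM, Lum 6.97 and 3.63 FPKM and Col1a1 1.80 and 0.79 FPKM, with Pdgfra at 0 in both. The part of the fibroblast markers in the values of Igf1r, Ddit4 and Mxi1 was not tested. In RNA from a whole culture, more cells that express a gene and more RNA per cell cannot be told apart.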

How the data were processed

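RNA of H9c2 cells was sequenced, 1 library at 2.5 mM and 1 at 0.9 mM phosphate. The authors' files hold FPKM, per the file headers, with 2 decimals. Build Rnor_6.0, Cuffdiff, Cufflinks 2.2.1, TopHat2 2.1.1 and bcl2fastq appear in the submitters' processing notes, without their roles. No source used here gives the annotation, the strand setting or any scaling between libraries. No counts were given, so the depth behind each value is unknown and no counting interval is given. Of 8039 entries, 236 had no usable identifier and were left out. Of the other 7803, 7746 matched a symbol in an NCBI table for GRCr8, used for names and overlapping genes.

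Log2 ratios used FPKM + 1. The comparison took genes whose mean reached 1 FPKM, and 2-fold was the threshold. With 1 library per group, values are described without a test. The genes, the 19 lists and the rule for naming genes were chosen with earlier results of these data known. By that rule the text may name the 5 genes; any gene of the ligand, binding protein, adaptor, FOXO factor, restraint and MYC network lists; from other lists the genes past 2-fold and the highest, lowest and most abundant; and the nearest genes. Not every gene it selects is reported here. Sequences come from the RefSeq promoter table (GRCr8), which held 4 of the 5 genes. The arithmetic was checked on simulated data with less spread than the real values, which tests none of the differences given here. Alternatives were pseudocounts of 0.5 and 0.1, 3 rescalings, other filters and a 1.5-fold threshold. Python 3.11.15 was used, with pandas 2.3.3, numpy 2.4.6 and matplotlib 3.10.9.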

Additional observations from a re-analysis of the deposited data

How the results depend on the processing

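Ddit4, Irs2 and Foxo4 kept their direction and their side of 2-fold under all 5 alternatives (pseudocounts of 0.1 and 0.5, and rescaling to the same sum, median ratio or upper quartile), and Igf1r and Mxi1 kept their direction. Igf1r passed 2-fold with smaller pseudocounts (log2 ratio 1.39 with 0.1 and 1.12 with 0.5), since the added constant shrinks low genes. With 0.1 Igf1r stood above Mxi1 (1.27). Mxi1 lay under 2-fold at the same sum (0.95), which lowers every log2 ratio. The count of genes past 2-fold, 115 (77 higher and 38 lower), became 213 (151 and 62) with a pseudocount of 0.1, 49 (41 and 8) from a mean of 5 FPKM and 462 (315 and 147) at 1.5-fold. Rescaling to the same sum gave 57 higher and 57 lower. List medians minus the median of all genes moved by over 0.1 for 4 lists: ligands and receptors (0.93 with a pseudocount of 0.1 and 0.38 without the filter on low values), binding proteins (0.26 without the filter), mTORC1 restraint (0.01 without it) and low oxygen (1.1 without it); the cause was not tested. In an alternative chosen after seeing the data, leaving out low oxygen genes left 1 FOXO target and 0 restraint genes at least 2-fold higher, since the others are in both lists. The contrasts of Igf1r with Irs2 and of Ddit4 with Foxo4 kept their direction and size class. No paired analysis was possible because each phosphate level has 1 library and no test was made. Unknown depth limits the low genes most, Igf1r among them.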
